A study of Homo sapiens with 4 samples.

Results

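The protein arginine methyltransferases (PRMTs) and the partners of PRMT5 were followed at the RNA level in SK-MEL-28, an established human melanoma cell line, with and without induction of MYC. The members were the 10 gene symbols PRMT1, PRMT2, PRMT3, CARM1, PRMT6, PRMT5, PRMT7, WDR77, CLNS1A and RIOK1, taken by name from a table of 25268 symbols and not by their values. All 10 were found, each in a single row, and all 10 passed the filter of a mean of at least 1 FPKM (fragments per kilobase of transcript and per 1000000 fragments mapped), as did 11147 symbols in all. SK-MEL-28 cells had been transduced with lentivirus and selected with geneticin (G418), to carry either an empty pTRIPZ vector (vector cells) or a MYC gene behind a Tet-inducible promoter (MYC-inducible cells). Total RNA was sequenced from both without doxycycline (Dox) and after 54 h with Dox, which the methods give as 0.5 μg/ml. There were 4 libraries, 1 per condition, so none of the differences below could be checked against replicates or given a p-value. Whether these cells are clones or pools of transduced cells is not given in the sources used here.

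PRMTs transfer methyl groups from S-adenosylmethionine to the side-chain nitrogens of arginine. Type I enzymes (PRMT1, PRMT2, PRMT3, CARM1 and PRMT6) leave asymmetric dimethylarginine, the type II enzyme PRMT5 leaves symmetric dimethylarginine, and PRMT7, a type III enzyme, leaves monomethylarginine. PRMT5 works in a complex with WDR77 (MEP50), a WD-repeat protein that holds substrates for it. CLNS1A (pICln) and RIOK1 are alternative adaptors that bind PRMT5 in a mutually exclusive way, the former bringing Sm proteins for the assembly of spliceosomal snRNPs and the latter bringing nucleolin. The study introduced PRMT5, from earlier work, as a splicing-related gene under transcriptional control of MYC. It also measured PRMT5 by RT-PCR in MYC-inducible cells, a result not reported here. PRMT5 was read there from this same RNA-Seq as well, so the comparison of PRMT5 here is not an independent test.

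The libraries had FPKM sums from 692146 to 715495 and an approximate depth from 35100000 to 42100000 fragments, estimated from the steps between very low values of 160 genes. MYC had 58.3 FPKM in untreated vector cells, 54.8 FPKM in Dox-treated vector cells, 76.5 FPKM in untreated MYC-inducible cells and 87.1 FPKM in Dox-treated MYC-inducible cells, a log2 change with Dox of 0.19 (1.14-fold) in the latter cells. Against Dox-treated vector cells MYC was 1.59-fold higher in Dox-treated MYC-inducible cells. The gene to be induced thus stayed short of 1.5-fold against its own untreated cells and was past it against Dox-treated vector cells. In separate assays the study measured MYC mRNA by RT-PCR and MYC activity with a reporter, and those results are not reported here. Each library has a single MYC value, in which transcripts of the transgene and of the endogenous gene cannot be told apart. The libraries are named in this order below wherever 4 values follow each other. The 8 melanocyte markers were present in every library. Their median log2 change with Dox was -0.72 in MYC-inducible cells, where 5 of 8 fell at least 1.5-fold, and -0.10 in vector cells, where none did. Of the 11147 symbols that passed the filter, 8.85% fell that far in MYC-inducible cells and 0.440% in vector cells. Among markers of other cell types, ALB was listed at 0 in the 4 libraries, PTPRC was listed at 0 except for 0.00984 FPKM in Dox-treated MYC-inducible cells, and PECAM1 reached at most 0.00551 FPKM. EPCAM, an epithelial marker, had 0.658, 0.769, 0.726 and 2.71 FPKM in the 4 libraries. The part of these marker shifts in the results below was not tested.

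Since the members were examined for a shared response to MYC, which binds the E-box CACGTG, their promoters were read from RefSeq on GRCh38.p14, as windows of 300 bases from 250 bases before to 50 bases after the annotated start. All 10 members had a window, and CARM1 and PRMT7 had 2. The E-box, which reads the same on both strands, was present in the windows of 2 of 10 members, PRMT3 and WDR77. Over all genes tested that had a window, 1109 of 8381 (13.2%) held it, and over all 35116 windows 7.26% did. The variant CACGCG, searched on both strands, was found for 2 members, CARM1 and PRMT7, and for 23.6% of the genes tested. The 250 bases before the start are shown for PRMT3 (plus strand, chr11:20387466-20387715), as the member with an E-box before its start, in capitals, for PRMT5 (minus strand, chr14:22929377-22929626), as the member the study had singled out, and for PRMT2 (plus strand, chr21:46635424-46635673), as the member with a lower level in Dox-treated MYC-inducible cells. For WDR77, on the minus strand of chromosome 1, 30 bases around its E-box are shown, since the motif began at position 11 of the transcript.
PRMT3: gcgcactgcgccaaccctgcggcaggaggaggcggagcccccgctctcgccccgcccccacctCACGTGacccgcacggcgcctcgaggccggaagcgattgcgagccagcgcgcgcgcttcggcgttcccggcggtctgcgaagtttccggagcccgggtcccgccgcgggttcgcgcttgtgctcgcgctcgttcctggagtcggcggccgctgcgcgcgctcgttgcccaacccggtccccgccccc
PRMT5: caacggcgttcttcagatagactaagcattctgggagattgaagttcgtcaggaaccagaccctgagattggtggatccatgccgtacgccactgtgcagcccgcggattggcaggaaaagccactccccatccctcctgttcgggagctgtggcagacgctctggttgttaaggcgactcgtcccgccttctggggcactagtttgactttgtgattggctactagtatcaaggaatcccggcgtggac
PRMT2: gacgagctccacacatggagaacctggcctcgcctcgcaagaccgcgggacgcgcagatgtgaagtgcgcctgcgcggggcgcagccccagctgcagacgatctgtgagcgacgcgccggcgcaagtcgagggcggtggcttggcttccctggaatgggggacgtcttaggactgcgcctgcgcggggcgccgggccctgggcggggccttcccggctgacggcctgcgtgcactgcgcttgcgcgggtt
WDR77 site: tcagaggtgcacCACGTGgggtttgctgcc

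In the PRMT3 sequence the E-box began at position -187 relative to the start. The GC content of the 300-base windows was 75% for PRMT3, 72% for PRMT2, 58% for PRMT5 and 54.7% for WDR77. The sequences were not tied to a change of level by any test, and binding of MYC was not measured.

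Outside Dox-treated MYC-inducible cells the members spanned a wide range of levels, and they kept nearly the same order in these 3 libraries. FPKM is scaled to transcript length, so levels of different genes can be set side by side. PRMT1 was the most abundant member, at 155 to 169 FPKM, followed by CLNS1A, WDR77 and PRMT2, which lay between 52.5 and 61.9 FPKM. In untreated vector cells CLNS1A exceeded WDR77 by 1.08-fold and WDR77 exceeded PRMT2 by 1.06-fold, whereas PRMT2 stood 1.49-fold above PRMT5, which stood 1.36-fold above PRMT7. PRMT6, PRMT3 and CARM1 lay between 11.7 and 15.1 FPKM, with steps of 1.06-fold and 1.08-fold in the same library. CLNS1A and WDR77 exchanged places between libraries, as did PRMT3 and CARM1, so these neighbours did not differ beyond the spread between libraries. RIOK1 was the least abundant, at 7.87 to 8.45 FPKM. Between the 3 libraries a member varied by 1.04-fold to 1.16-fold from its lowest to its highest value, the widest being PRMT3. In Dox-treated MYC-inducible cells, PRMT5 stood above PRMT2 and PRMT3 above PRMT6.

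**Figure D1:**
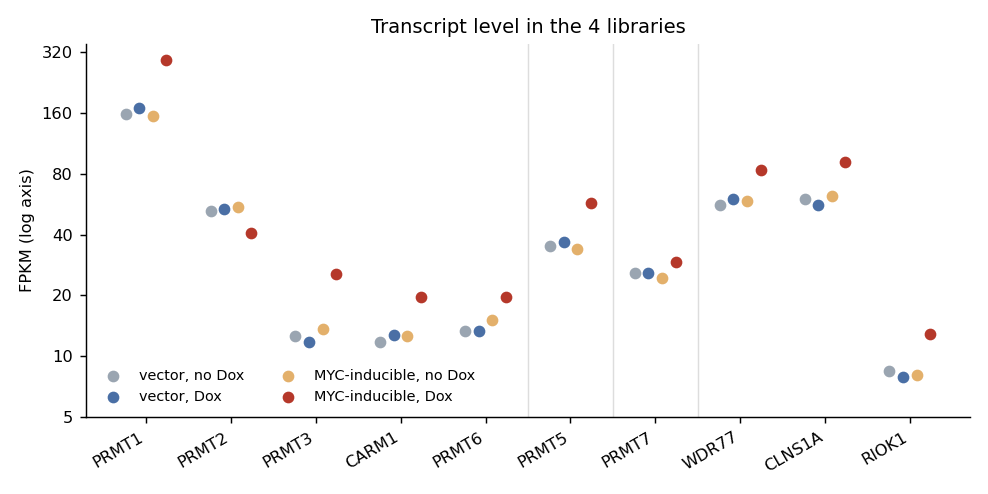
FPKM (log axis) of the 10 members in the 4 libraries, 1 point per library, with type I enzymes at the left, then PRMT5, PRMT7 and the PRMT5 partners. The other 3 libraries lie within 1.16-fold of each other for each member, and the Dox-treated MYC-inducible library lies above them for 9 members and below them for PRMT2.

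In MYC-inducible cells, 5 of the 10 members rose at least 1.5-fold with Dox and none fell that far. The members that rose were PRMT1, PRMT3, CARM1, PRMT5 and RIOK1. Over all 11147 genes examined, 5.90% rose and 8.85% fell at least 1.5-fold in the same comparison. The change was the difference of log2(FPKM + 0.1) between the 2 libraries, a scale on which 1.5-fold is 0.58 and which slightly understates the change of low genes. The median of the 10 members was 0.60, beside -0.03 for all genes tested, and 9 of 10 members were above 0, as were 46.8% of all genes. At a 2-fold threshold none of the 10 members was called, since the largest change, that of PRMT1, was 0.93. The share of all genes past 2-fold was not counted.

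Among the type I enzymes, PRMT1 is the principal source of asymmetric dimethylarginine in most cells. PRMT1 (chromosome 19 of GRCh37, 50179043 to 50192286, 11 exons in its canonical transcript) had 158 FPKM in untreated and 169 FPKM in Dox-treated vector cells, and 155 FPKM in untreated and 294 FPKM in Dox-treated MYC-inducible cells. The library of Dox-treated MYC-inducible cells stood 1.74-fold above the highest of the others. The log2 change with Dox was 0.93 (approximate counting error 0.0194) in MYC-inducible cells and 0.10 (counting error 0.0228) in vector cells. Counting errors here cover the sampling of fragments, not the difference between cultures. PRMT1 ranked 149 of 11147 genes by its rise in MYC-inducible cells.

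PRMT3, a mainly cytosolic enzyme with a zinc finger whose substrate is the ribosomal protein RPS2, also rose, from a much lower level. PRMT3 (chromosome 11, 20409104 to 20530884, 16 exons) had 12.6, 11.8, 13.7 and 25.4 FPKM in the 4 libraries. The first 3 libraries were close together and the last was 1.85-fold above the highest of them. Its log2 change with Dox was 0.88 in MYC-inducible cells (counting error 0.0472) and -0.09 in vector cells (counting error 0.0601).

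CARM1, a coactivator that methylates histones and splicing and transcription factors, had 11.7, 12.8, 12.6 and 19.7 FPKM. It lies on chromosome 19 from 10982229 to 11033751. The log2 change with Dox was 0.64 in MYC-inducible cells (counting error 0.0448) and 0.12 in vector cells (counting error 0.0528). The first 3 libraries lay below the last. Subtracting the change in vector cells from that in MYC-inducible cells left 0.51, below 1.5-fold.

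PRMT6, a nuclear enzyme known for a repressive mark on histone H3, did not reach 1.5-fold. PRMT6 (chromosome 1, 107599296 to 107610258, a canonical transcript of 1 exon) had 13.3, 13.3, 15.1 and 19.7 FPKM. The library of Dox-treated MYC-inducible cells was the highest, yet the untreated MYC-inducible library was already 1.14-fold above the untreated vector library, the largest difference between untreated cells of both kinds among the members. The log2 change with Dox was 0.38 in MYC-inducible cells and 0.00 in vector cells.

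PRMT2, a type I enzyme with an SH3 domain and weak activity, was the member with the opposite direction. PRMT2 (chromosome 21, 48055507 to 48085036) had 52.5, 53.8, 54.6 and 40.9 FPKM, the last being lower than each of the others. Its log2 change with Dox was -0.41 in MYC-inducible cells (counting error 0.0306), short of 1.5-fold, and 0.04 in vector cells (counting error 0.0300).

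PRMT5, which methylates Sm proteins, histones and transcription factors, rose 1.67-fold with Dox in MYC-inducible cells. PRMT5 (chromosome 14, 23389734 to 23398617, 17 exons) had 35.2 FPKM in untreated and 36.7 FPKM in Dox-treated vector cells, and 34.1 FPKM in untreated and 57.1 FPKM in Dox-treated MYC-inducible cells. The first 3 libraries lay together, and the last was 1.56-fold above the highest of them. The log2 change was 0.74 with Dox in MYC-inducible cells (counting error 0.0321) and 0.06 in vector cells (counting error 0.0368), and it ranked 335 of 11147 genes in the former.

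PRMT7, which makes monomethylarginine, had the smallest difference of the members. PRMT7 (chromosome 16, 68344854 to 68394755) had 25.9, 25.9, 24.5 and 29.3 FPKM. The last library was the highest by 1.13-fold over the next. Its log2 change with Dox was 0.26 in MYC-inducible cells (counting error 0.0320) and 0.00 in vector cells.

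**Figure D2:**
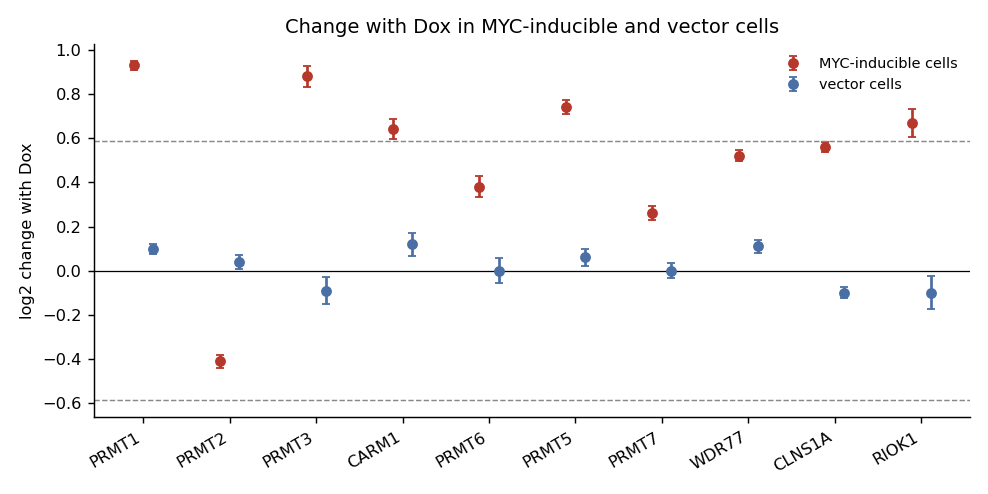
Log2 change with Dox of each member in MYC-inducible cells and vector cells, 1 pair of libraries each. Bars are approximate counting errors, which leave out differences between cultures, and dashed lines mark 1.5-fold. In MYC-inducible cells the changes run from -0.41 for PRMT2 to 0.93 for PRMT1, and in vector cells they run from -0.10 to 0.12.

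The 3 PRMT5 partners had log2 changes from 0.52 to 0.67 in MYC-inducible cells and from -0.10 to 0.11 in vector cells. WDR77, the obligate subunit of the PRMT5 complex (chromosome 1, 111982512 to 111991878), had 55.8, 60.3, 58.5 and 83.9 FPKM. Its level in the Dox-treated MYC-inducible library was 1.39-fold above the highest other library, and its log2 change of 0.52 (counting error 0.0245) was below 1.5-fold. CLNS1A (chromosome 11, 77225981 to 77348839) had 60.4, 56.3, 61.9 and 91.2 FPKM. Its log2 change of 0.56 (counting error 0.0215) fell just short of the threshold, at 1.47-fold, and in vector cells it was -0.10 (counting error 0.0255). RIOK1, an atypical kinase of ribosome maturation besides its role as an adaptor (chromosome 6, 7390026 to 7418270), had 8.45, 7.87, 8.06 and 12.9 FPKM. It rose by a log2 change of 0.67 (counting error 0.0640), from the lowest level of the 10 members, while in vector cells its change was -0.10 (counting error 0.0744).

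In vector cells none of the 10 members changed by 1.5-fold with Dox. Over all genes tested, 0.709% rose and 0.440% fell that far. The median of the members was 0.02, beside 0.01 for all genes, and at 2 decimals 5 of 10 members were above 0, 3 were below it, and PRMT6 and PRMT7 were at 0.00. Before rounding, 54.2% of all genes were above 0. To see what single libraries differ by when no MYC transgene is present, 7474 genes averaging 5 FPKM or more were used, as every member lies above that level. In vector cells 95% of them had log2 changes between -0.20 and 0.24, and all 10 members lay inside this range. In MYC-inducible cells, 9 members lay above this range of vector cells and PRMT2 lay below it. The share of all genes beyond it was not counted, and all genes spread more widely in MYC-inducible cells. This count therefore does not set the members apart from other genes. By the range within MYC-inducible cells, where 95% of these genes lay between -0.88 and 0.76, PRMT1 and PRMT3 lay outside. Genes are not replicates, so these ranges describe the libraries and do not test the conditions.

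**Figure D3:**
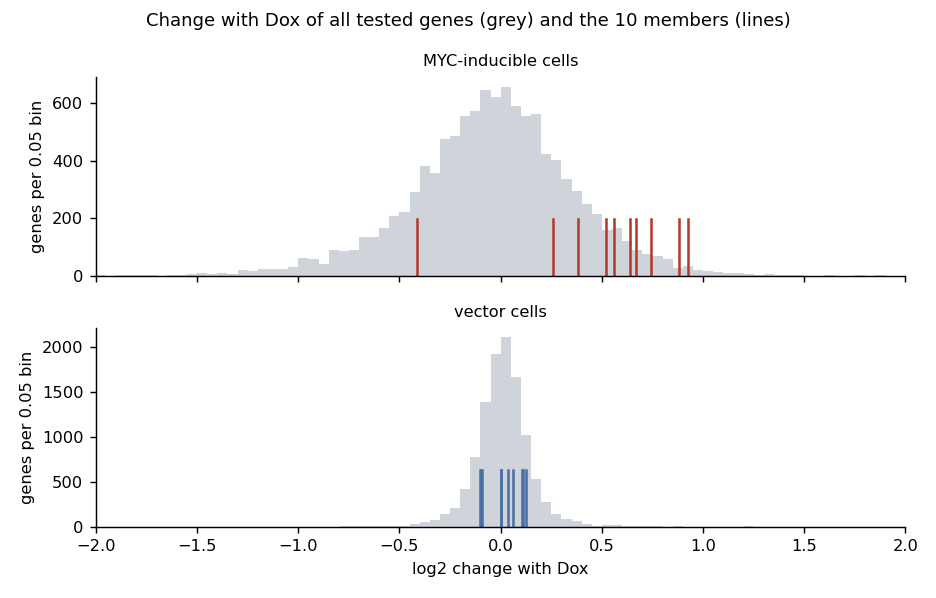
Histograms of the log2 change with Dox over the 11147 genes tested (grey, genes per bin of 0.05), with vertical lines for the 10 members, whose height carries no value. In MYC-inducible cells 9 lines lie to the right of 0, with a median of 0.60 for the members, and in vector cells all lie within the central part of a narrower distribution.

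Subtracting the change in vector cells from that in MYC-inducible cells left 5 members at least 1.5-fold higher, PRMT3 (0.97), PRMT1 (0.82), RIOK1 (0.77), PRMT5 (0.68) and CLNS1A (0.66). CARM1 was past 1.5-fold before this subtraction and not after it, and CLNS1A the reverse. Of all genes tested, 5.85% were higher and 9.72% lower by 1.5-fold on this difference. The members' median was 0.59 and that of all genes was -0.04. This difference between the cells was not tested, with 1 library behind each value.

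Untreated cells of both kinds were close to each other. None of the 10 members differed by 1.5-fold between them, where 0.592% of all genes were higher and 0.287% lower in MYC-inducible cells. The log2 differences ran from -0.08 for PRMT7 to 0.18 for PRMT6. MYC itself was 1.31-fold higher in untreated MYC-inducible cells than in untreated vector cells.

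With Dox in both kinds of cells, 6 members were at least 1.5-fold higher in MYC-inducible cells, against 6.50% of all genes, and none was lower, against 8.62%. This comparison shares the Dox-treated MYC-inducible library with the one above, so it is not independent of it. PRMT3 had the largest difference, a log2 value of 1.09, followed by PRMT1 (0.80), RIOK1 (0.71), CLNS1A (0.69), PRMT5 (0.64) and CARM1 (0.62). PRMT6 had 0.56, WDR77 0.47, PRMT7 0.18 and PRMT2 -0.39. The library of Dox-treated MYC-inducible cells was above all 3 others for 9 of 10 members, as it was for 40.2% of all genes tested, and below all 3 others for PRMT2, as for 42.9% of all genes.

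The summed level of the 7 enzymes was 309 FPKM in untreated and 324 FPKM in Dox-treated vector cells, and 309 FPKM in untreated and 486 FPKM in Dox-treated MYC-inducible cells. PRMT1 transcripts made up 51%, 52.3%, 50.0% and 60.5% of this sum in the same order, and PRMT2 transcripts 17%, 16.6%, 17.6% and 8.41%. The share of PRMT5 was 11.4%, 11.3%, 11% and 11.7%, so its transcripts kept nearly the same part of the sum. Likewise, the ratio of summed type I FPKM to PRMT5 FPKM was between 7 and 7.35 in the 4 libraries. Without PRMT1 the sum was 151, 154, 155 and 192 FPKM. These are shares of RNA, and protein and enzyme activity were not measured.

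**Figure D4:**
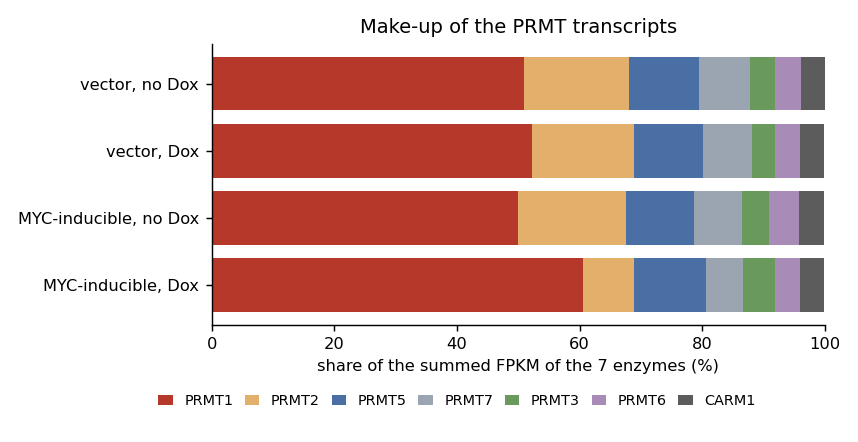
Share (%) of each enzyme in the summed FPKM of the 7 PRMT enzymes, 1 bar per library. PRMT1 takes 60.5% in the Dox-treated MYC-inducible library and 50.0% to 52.3% in the others, PRMT2 takes 8.41% and 16.6% to 17.6%, and PRMT5 stays between 11% and 11.7%.

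Within the PRMT5 complex, the ratio of WDR77 to PRMT5 FPKM was 1.58, 1.64, 1.71 and 1.47 in the 4 libraries. The lowest ratio was thus in the Dox-treated MYC-inducible library. The ratio of the adaptors CLNS1A to RIOK1 was 7.14, 7.16, 7.67 and 7.07, and that of RIOK1 to PRMT5 was 0.240, 0.214, 0.236 and 0.226. For the first of these the Dox-treated MYC-inducible library was the lowest, just below both vector libraries, and for the second it lay within the range of the others.

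Related genes were followed in lists by function, of 54 genes in all, of which 50 were tested. With Dox, 4 of the 50 rose and 1 fell by 1.5-fold or more in MYC-inducible cells, with a median log2 change of 0.20, and 36 were above 0. In vector cells none was called in either direction, and the median was 0.02. These shares stand beside the 5.90% and 8.85% of all genes given above.

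Substrates of PRMT1, PRMT3 and CARM1 held all 4 genes that rose, with 4 of 15 called and a median of 0.33. NCL (nucleolin, a nucleolar protein of ribosome synthesis) had 437, 447, 468 and 837 FPKM, a log2 change with Dox of 0.84 in MYC-inducible cells. FBL (fibrillarin, the methyltransferase of box C/D snoRNPs) had 311, 316, 314 and 550 FPKM, a change of 0.81. SERBP1, an mRNA-binding protein, had 66.8, 65.9, 68.0 and 118 FPKM, a change of 0.79. GAR1, a subunit of box H/ACA snoRNPs, had 35.6, 33.0, 33.8 and 57.0 FPKM, a change of 0.75. In each of these the first 3 libraries lay together and apart from the last. In vector cells their changes ran from -0.11 to 0.03, the lowest being that of GAR1 and the highest that of NCL. NCL is counted in this list, though it is also the protein that RIOK1 brings to PRMT5, so the lists are not separate in their substrates.

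None of the 10 genes listed as PRMT5 substrates, without NCL, was called, and 8 of them were above 0 in MYC-inducible cells, with a median of 0.18. SNRPB, an Sm protein of the spliceosomal snRNPs, had a log2 change of 0.45 from 662 to 905 FPKM, LSM4 had 0.18 and G3BP1 0.18. Among the 6 readers of methylarginine none was called, with a median of 0.08. SND1 had -0.30, TDRD3 0.05 and SMN1 0.35. SMN1 and SMN2 are near-identical genes whose reads could have been split between them. Of 5 further PRMT partners none was called. The PRMT1-associated protein ERH had 0.37, the PRMT5 adaptor COPRS 0.24 and CHTOP 0.18.

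Of the enzymes around S-adenosylmethionine, the methyl donor, none of 9 was called in MYC-inducible cells, with a median of 0.25. AHCY, which clears the product inhibitor S-adenosylhomocysteine, had 152, 154, 158 and 211 FPKM, a log2 change of 0.42. MAT2A, which makes the donor, had 0.15 and AHCYL1 -0.11. The highest changes of this list were just short of the threshold, AMD1, which decarboxylates S-adenosylmethionine for polyamine synthesis, at 0.58 (30.9, 28.3, 32.6 and 48.9 FPKM), and MTRR, the reductase that keeps methionine synthase active, at 0.57 (8.61, 8.01, 8.65 and 12.9 FPKM). With the change in vector cells subtracted, AMD1 had 0.71 and MTRR 0.67, and between Dox-treated cells of both kinds they had 0.79 and 0.68, all past 1.5-fold. MTAP, which clears the PRMT5-inhibiting metabolite methylthioadenosine, and whose gene is often deleted in tumours, was present at 10.7 to 12.9 FPKM in the 4 libraries. AMD1, MTRR and MTAP were named after their values were seen.

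The single gene of these lists that fell was DDAH2, a member of the dimethylarginine dimethylaminohydrolase family, whose family activity is the breakdown of free asymmetric dimethylarginine. DDAH2 had 22.5 FPKM in untreated and 25.3 FPKM in Dox-treated vector cells, and 23.2 FPKM in untreated and 9.66 FPKM in Dox-treated MYC-inducible cells. The last library was lower than all others, a log2 change of -1.26 in MYC-inducible cells beside 0.17 in vector cells. DDAH1 was below the filter, at 0.287 to 0.481 FPKM. JMJD6, a dioxygenase, had a log2 change of 0.17.

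**Figure D5:**
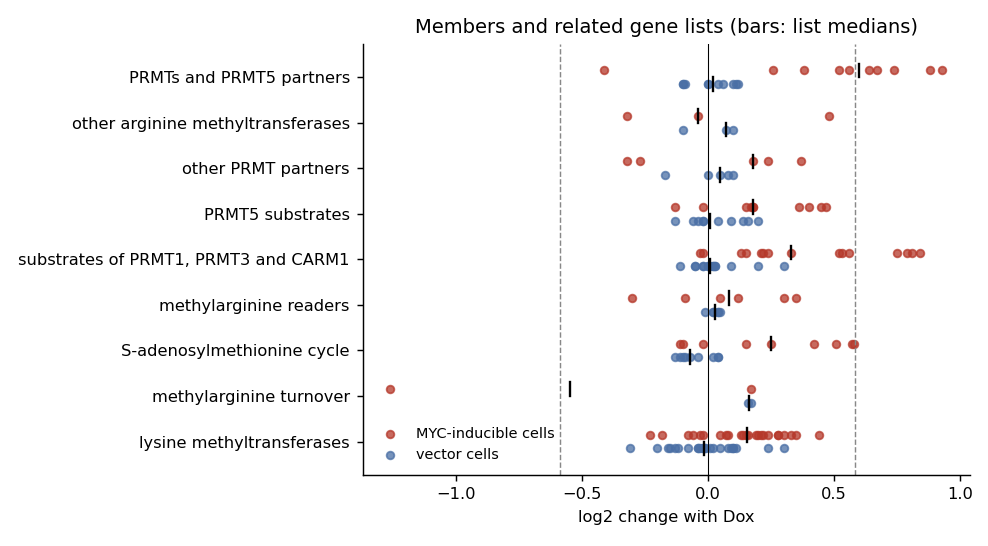
Log2 change with Dox of the 10 members and of the tested genes of 8 related lists, in MYC-inducible cells and vector cells, 1 point per gene. Black bars are list medians and dashed lines mark 1.5-fold. The members have the highest median in MYC-inducible cells, 0.60, and DDAH2, at -1.26, is the lowest point.

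Of other arginine methyltransferases, 3 were tested and none was called. PRMT8, which is most like PRMT1 in sequence, was listed at 0 in the 4 libraries. PRMT9 had 2.38, 2.21, 2.60 and 2.52 FPKM, a log2 change of -0.04 with Dox in MYC-inducible cells. NDUFAF7, a mitochondrial enzyme, had 0.48 and METTL23 had -0.32. As a comparison with methyltransferases of another residue, 24 lysine methyltransferases were tested. None of the 24 was called in either direction in either kind of cell. Their median was 0.15 and their range -0.23 to 0.44 in MYC-inducible cells. Of all genes tested, 5.90% rose and 8.85% fell at least 1.5-fold in MYC-inducible cells, and 0.709% and 0.440% in vector cells. With shares this low, a count of none among 24 is not read as a contrast with the members.

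Some members share their locus with annotated genes on the opposite strand, and the sources used here do not say if the counting was strand-specific. CARM1 is overlapped on the opposite strand by YIPF2, which had 35.2 FPKM in untreated and 31.6 FPKM in Dox-treated MYC-inducible cells. WDR77 is overlapped on the opposite strand by ATP5F1 (now ATP5PB), which had 240 and 324 FPKM. The part of shared reads in the values of these members was not tested.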

How the data were processed

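RNA-Seq of the 4 SK-MEL-28 libraries, 1 per condition, was analysed from a single table of FPKM values per gene symbol that the authors deposited. The submitters' processing notes name TopHat2 2.0.14 and Cufflinks, and the builds hg19 and GRCh37, without their roles. The annotation is not given in the sources used here. Of the table's 27032 rows, 1 had no gene name and a missing value and was dropped. Where a symbol had more than 1 row, as 609 did, the rows were added up, leaving 25268 symbols.

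FPKM values are not counts and each condition has 1 library, so no model was fitted and no test was made. Changes were differences of log2(FPKM + 0.1) from library to library. They were computed for 11147 genes averaging 1 FPKM or more, and a gene was called where its change was 1.5-fold or larger. The log2 values are thus computed here from the deposited FPKM.

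Depth was taken from genes whose values under 0.2 FPKM were whole multiples (up to 12, within 1.2%) of 1 step, taking genes with 1 annotated transcript that is 1500 bases or longer. The quartiles of the estimate over 160 genes were 34300000 and 40800000 fragments. Approximate counting errors followed from this depth and the canonical transcript length, with 690 to 15400 fragments for a member in a library. Positions came from GENCODE release 44 on GRCh37, the build of the files, and promoters came from RefSeq on GRCh38.p14.

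The members, lists, thresholds and alternatives were chosen with earlier results of these data known. All 10 members are named. From each related list the genes past 1.5-fold in MYC-inducible cells are named and, where these are fewer than 3, those with the highest mean, and of the lysine methyltransferases those past 2-fold. The alternatives were other pseudocounts, filters, scalings, thresholds and references, and the highest row in place of the sum for repeated symbols. The calculations were tested on simulated data. Calculations were run in Python 3.11.15 with pandas 2.3.3 and numpy 2.4.6, and figures were drawn with matplotlib 3.10.9.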

Additional observations from a re-analysis of the deposited data

Results flagged for a closer look

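With Dox, 4 members and 3 related genes moved in opposite directions in MYC-inducible and vector cells, and this difference was not tested, since each gives 1 pair of libraries. The change in MYC-inducible cells less that in vector cells was 0.97 for PRMT3, 0.66 for CLNS1A and 0.77 for RIOK1, whose log2 changes in vector cells were -0.09, -0.10 and -0.10. It was -0.45 for PRMT2, at 0.04 in vector cells. Among the related genes it was 0.86 for GAR1, 0.81 for SERBP1 and -1.42 for DDAH2. The changes of the 4 members in vector cells were 1.2 to 3.89 times their approximate counting errors, which do not include differences between cultures. They lay inside -0.20 to 0.24, the range of 95% of genes averaging 5 FPKM or more in vector cells. So did those of the 3 related genes, at -0.11 for GAR1, -0.02 for SERBP1 and 0.17 for DDAH2. The share of all genes with opposite directions was not counted, so no reverse response to Dox is read from these values.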

How the results depend on the processing

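No paired analysis was possible because no condition was sequenced more than once. Of 202 recalculated values for medians and counts, 189 moved by less than the robust SD of the change in vector cells over all genes (0.11) or, for counts, by no more than 1.5 times, and 13 moved further, most of them with the threshold. Of 410 recalculated values for single members, 4 moved further, all with Dox-treated vector cells as the reference, and none of the values called at 1.5-fold changed direction. Under this reference the values were 0.80 for PRMT1, 1.09 for PRMT3, 0.56 for PRMT6 and 0.69 for CLNS1A. They are the values given above between Dox-treated cells of both kinds, since this reference makes the same comparison. They are thus not a further result.
With a 2-fold threshold, 0 members were called higher in MYC-inducible cells and on the difference between the changes, 1 was higher between Dox-treated cells of both kinds, and 0 genes of the related lists were called higher. With a lower threshold, of 0.32 on the log2 scale, 8 members were higher and 1 lower in MYC-inducible cells. The same counts held on the difference between the changes, and 1 member was lower between Dox-treated cells of both kinds. At this threshold the related lists had 19 genes higher and 2 lower. The share of all genes was not counted at either threshold. These counts therefore do not set the members or lists apart from other genes. The related lists had 7 genes higher after division by the median ratio and 8 with Dox-treated vector cells as the reference, and the cause was not tested. Over the scalings, pseudocounts and filters the change of PRMT5 in MYC-inducible cells ran from 0.69 to 0.77, and that of PRMT2 from -0.46 to -0.39. In vector cells PRMT6 and PRMT7 ran from -0.02 to 0.00, so no direction is given for them there. Depth limits RIOK1 most, with 690 to 1270 approximate fragments.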
